A study of Mus musculus with 4 samples.

Results

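The 10 genes described here (Cacna1c, Cacnb2, Ryr2, Casq2, Trdn, Jph2, Atp2a2, Pln, Sln and Slc8a1) encode the proteins that move calcium during the heartbeat. They were listed by name, not by a measured value, and all 10 were measured, among 18193 genes in all. A probe set, the group of short oligonucleotides that reports a transcript on an Affymetrix 3′ array, was counted for a gene where the platform annotation gave that gene alone. This gave 30 probe sets, from 1 for Casq2 to 6 each for Atp2a2 and Trdn. The brightest of them over the 4 arrays stood for the gene.

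Heart RNA was compared between mice with the GSK-3beta S9A genotype, aged 3.5 months, and wild-type mice, aged 3.6 months, with 2 arrays per group. GSK-3beta is a kinase that is switched off when its serine 9 is phosphorylated, and the knock-in replaces that serine with alanine. All were labelled C57B6 and taken at baseline, and zygosity was not labelled. The same wild-type samples also serve a comparison with GSK-3alpha knock-in hearts, which was not analysed here. Whether each array stands for its own animal is not labelled, so the p-values cover the spread of these arrays, which may be technical. In a bulk heart sample, fewer cells of a type and less RNA per cell cannot be told apart.

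In a heart muscle cell, depolarisation opens the L-type calcium channel, and the calcium that enters opens ryanodine receptors in the nearby sarcoplasmic reticulum, which release far more. Relaxation follows when the pump SERCA2a returns calcium to the reticulum and the sodium-calcium exchanger carries the rest out of the cell. Phospholamban and sarcolipin are small membrane proteins that hold the pump back. In mouse heart, phospholamban is the main brake in ventricles, and sarcolipin is largely an atrial transcript.

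None of the 10 genes passed the test between knock-in and wild-type hearts. Of all genes 0.00550% passed limma at an adjusted p under 0.05, and 0 of the 10 did, with adjusted p from 0.531 to 1. At an unadjusted limma p under 0.05 the count was 1 of 10, that of the exchanger gene Slc8a1, lower in knock-in hearts (2.99% of all genes were), compared with 7.39% of all genes and 10.3% of the 5308 genes at least as bright as the dimmest of the 10. This count depended on which arrays were kept. With 1 array left out at a time, the Slc8a1 difference ranged from -0.90 to -0.43 on the log2 scale. The groups lay apart, with no overlap of their arrays, in 3 of the 10, compared with 36.5% of all genes and 48.3% of those bright genes. Of the 3, Casq2 was higher in knock-in hearts, as 19.6% of all genes were, and Slc8a1 and Jph2 were lower, as 17.0% were. The median knock-in minus wild-type difference of the 10 was 0.0060 on the log2 scale, and that of all genes was 0.00024.

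**Figure D1:**
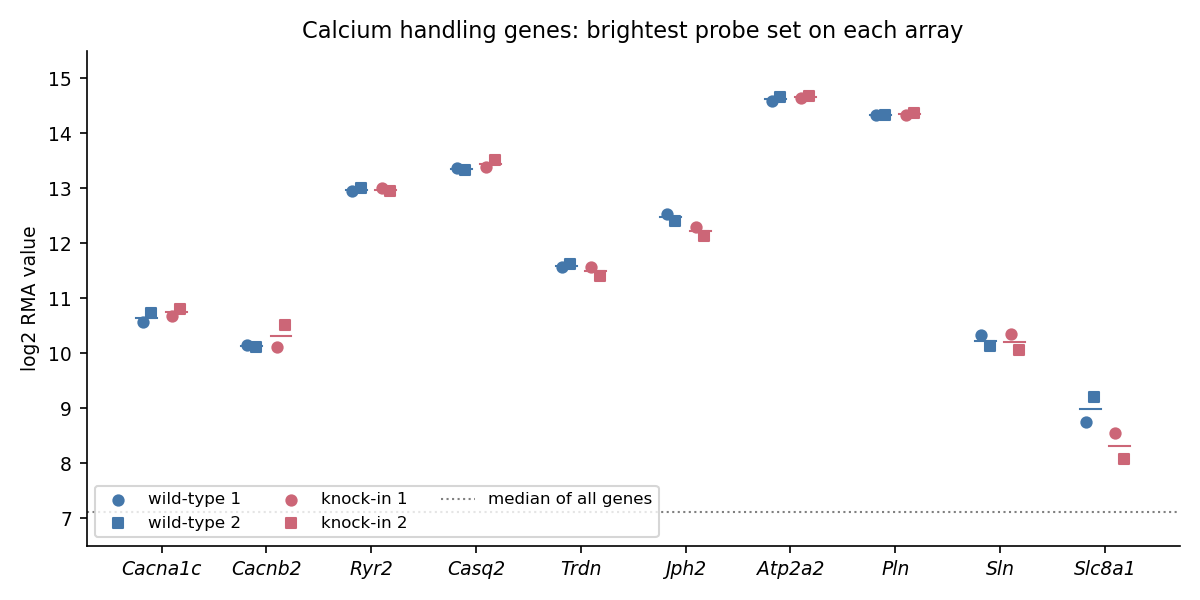
Log2 RMA value (y axis) of the brightest probe set of each of the 10 genes on each of the 4 arrays. Short lines are group means (n = 2) and the dotted line is the median of all gene means, 7.11. The groups lie apart for Slc8a1, Jph2 and Casq2 and overlap for the other 7 genes.

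The brightest probe sets of the L-type channel genes gave overlapping groups, and the dimmer Cacna1c probe set, described below, did not. Cacna1c encodes the pore-forming subunit of the channel and was at 10.56 and 10.72 in wild-type and at 10.68 and 10.81 in knock-in hearts. Its knock-in minus wild-type difference was 0.10 with a 95% interval from -0.17 to 0.36 and an adjusted limma p of 0.909. Cacnb2 encodes the beta subunit that brings the pore to the membrane and tunes its gating. It was at 10.15 and 10.11 in wild-type and at 10.12 and 10.52 in knock-in hearts, so knock-in 2 alone was high. The difference of 0.19 (interval -0.17 to 0.54) became -0.013 without that array. Its other probe set showed the same array pattern, at 8.49 and 8.62 in wild-type and 8.49 and 8.91 in knock-in hearts.

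Of the release complex, the receptor gene itself had nearly equal group means. Ryr2, which encodes the ryanodine receptor, was at 12.95 and 13.00 in wild-type and at 13.00 and 12.95 in knock-in hearts. Its difference was 0.0011 with an interval from -0.23 to 0.23, so a difference of more than 0.23 in either direction lay outside the interval. The dimmer Ryr2 probe set, from the same sequence record, was at 10.24 and 10.34 in wild-type and at 10.12 and 10.86 in knock-in hearts, with knock-in 2 high and an SD of 0.53 in knock-in hearts (n = 2). Casq2, which encodes the calsequestrin that stores calcium beside the receptor, was at 13.38 and 13.34 in wild-type and at 13.38 and 13.51 in knock-in hearts. The knock-in arrays lay just above the wild-type arrays, by 0.091 on average (interval -0.15 to 0.34, adjusted limma p of 0.908). Its only probe set carries an s suffix, which marks probes shared by several transcripts.

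Trdn encodes triadin, which anchors calsequestrin to the receptor. Its brightest probe set was at 11.56 and 11.62 in wild-type and at 11.57 and 11.40 in knock-in hearts, a difference of -0.10 (interval -0.36 to 0.15). Jph2 encodes junctophilin 2, which ties the reticulum to the plasma membrane at the dyad. It was at 12.53 and 12.41 in wild-type and at 12.30 and 12.14 in knock-in hearts. The groups did not overlap, and the difference was -0.25 ± 0.11 (SE), with an interval from -0.52 to 0.014 and an adjusted limma p of 0.690. The dimmer Jph2 probe set gave -0.26, but its groups overlapped, at 7.85 and 7.71 against 7.80 and 7.24.

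For the pump gene Atp2a2, the main probe set differed between groups by less than the wild-type arrays did, but by more than the knock-in arrays. Of its inhibitors, Sln differed by less than the arrays of either group did, and Pln by 0.011. Atp2a2, which encodes SERCA2a, was at 14.58 and 14.66 in wild-type and at 14.64 and 14.67 in knock-in hearts, a difference of 0.037 (interval -0.20 to 0.27). Averaged over its 6 probe sets, the Atp2a2 difference was -0.19 (adjusted limma p of 0.782). Pln, which encodes phospholamban, was at 14.34 and 14.33 in wild-type and at 14.33 and 14.36 in knock-in hearts, a difference of 0.011 (interval -0.22 to 0.24). Its other 2 probe sets, from the same sequence record, had differences of 0.082 and 0.062, with the groups apart. Sln, which encodes sarcolipin, was at 10.32 and 10.14 in wild-type and at 10.34 and 10.05 in knock-in hearts. Its difference was -0.032 with an interval from -0.36 to 0.29, and the arrays of each group differed more than the groups did. The dimmer Sln probe set was at 5.48 and 5.28 in wild-type and at 5.36 and 5.39 in knock-in hearts.

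The pump was also set against its inhibitors and the exchanger on each array, a value to be read only between groups because levels of different probe sets cannot be compared. On the log2 scale Atp2a2 minus Pln averaged 0.28 ± 0.058 in wild-type hearts and 0.31 ± 0.0041 in the knock-in (SD, n = 2). The difference between groups was 0.027 (exact permutation p = 1, two-sided). With all probe sets of a gene averaged it was -0.24 (exact permutation p = 0.333). Atp2a2 minus Sln differed by 0.069 (exact permutation p = 0.667), and Atp2a2 minus Slc8a1 by 0.70 (exact permutation p = 0.333). All 3 had an adjusted p of 1, and with 2 arrays against 2 the smallest exact p is 0.333.

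Among the main values of the 10 genes, that of Slc8a1 differed most between the groups. It encodes the sodium-calcium exchanger NCX1, the main route of calcium out of the heart muscle cell. It was at 8.76 and 9.21 in wild-type and at 8.55 and 8.08 in knock-in hearts, with no overlap. Group means were 8.98 ± 0.32 and 8.32 ± 0.34 (SD, n = 2), and the difference was -0.67 ± 0.21 (SE, 1.59-fold), with an interval from -1.17 to -0.16 and an unadjusted limma p of 0.0172. It ranked 588 by p among all genes and did not pass, with an adjusted p of 0.531. Leaving out wild-type 2 gave -0.44 and leaving out knock-in 2 gave -0.43, and neither had an unadjusted p under 0.05. Leaving out wild-type 1 gave -0.89, and leaving out knock-in 1 gave -0.90. With the replicate number as a block, the unadjusted p was 0.0516.

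The other 3 Slc8a1 probe sets also had lower knock-in means, by smaller amounts. However, 2 of these 3 were dim, with means over the 4 arrays of 6.18 and 3.66, below the median of all gene means, 7.11. The differences of the 3 were -0.21, -0.21 and -0.16, with unadjusted limma p from 0.237 to 0.327. The brighter of these 3 was at 7.90 and 7.62 in wild-type and at 7.30 and 7.81 in knock-in hearts, so knock-in 1 was low there, whereas knock-in 2 was low for the main probe set. Leaving out 1 array at a time moved 2 of these 3 to as much as 0.034 and 0.046. With all 4 probe sets averaged, the dim ones included, the Slc8a1 difference was -0.31 (unadjusted limma p of 0.0238, adjusted 0.588).

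**Figure D2:**
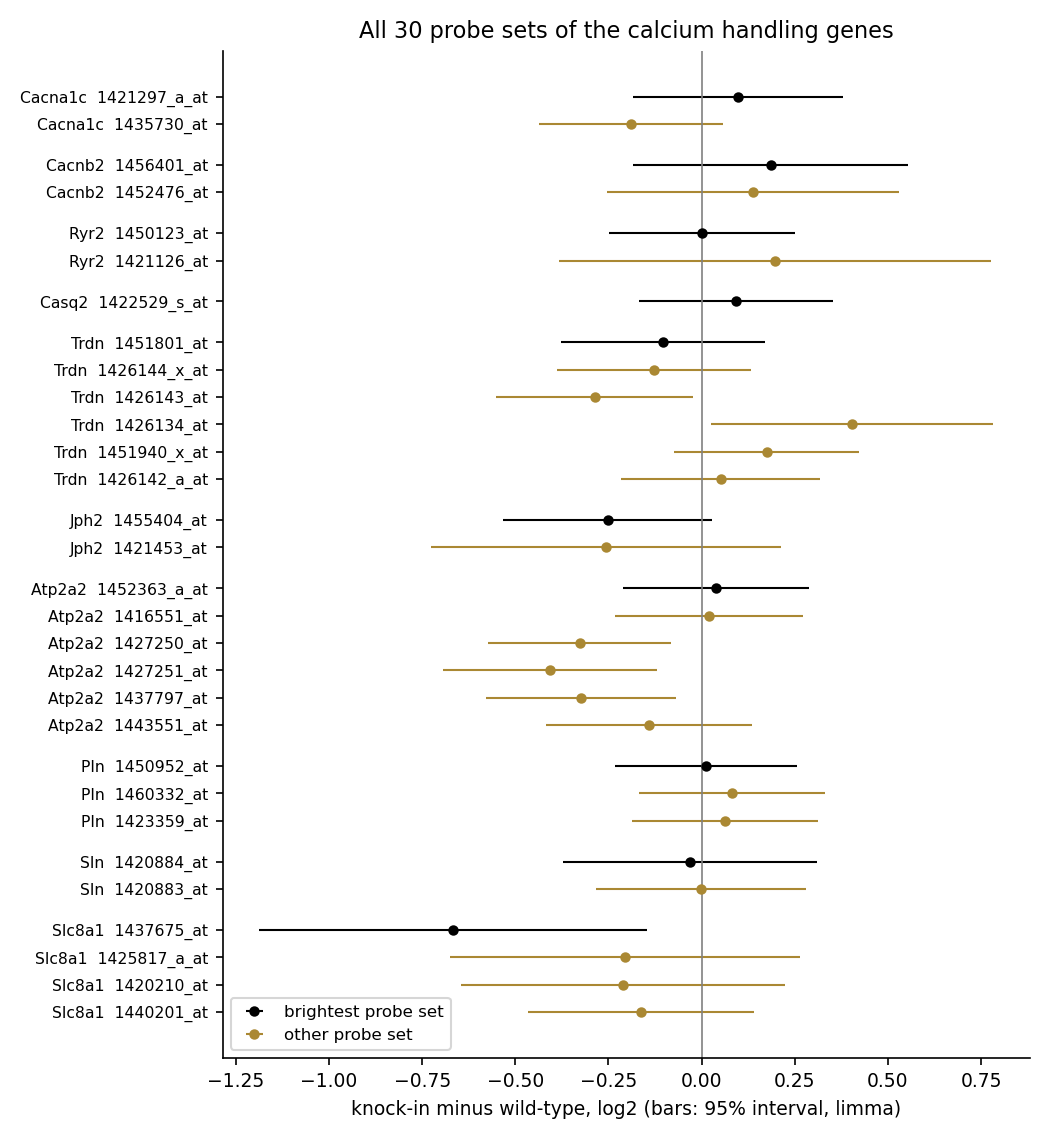
Knock-in minus wild-type log2 difference (x axis) of all 30 probe sets, grouped by gene and ordered by brightness within it, with 95% intervals from limma over all probe sets. Intervals of 6 probe sets do not span 0: 3 of Atp2a2, 2 of Trdn and 1 of Slc8a1.

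Beyond the brightest probe sets, the data for Atp2a2 and Trdn depended on which probe set was read. Fitted over 45037 probe sets, 0 of the 30 passed limma (0% of all probe sets did), with the smallest adjusted p at 0.722. An unadjusted limma p under 0.05 was reached by 6 of the 30 and by 5.84% of all probe sets. Of the 6, 5 were lower in knock-in hearts (3% of all probe sets were) and 1 was higher (2.84% were). Among probe sets above the median of gene means the count was 6 of 26, compared with 8.83% of all probe sets there. The 6 belong to 3 genes, so they are not independent of each other. Which transcripts of a gene each probe set reports, and where along them it lies, was not tested. With 1 array left out at a time, the differences of the 6 changed in size. That of the main Slc8a1 probe set ranged from -0.90 to -0.43, and that of the Trdn probe set 1426134_at from 0.20 to 0.61. Groups did not overlap in 15 of the 30, compared with 33.9% of all probe sets, with 5 higher in knock-in hearts (15.7% of all) and 10 lower (18.2%). Above the median of gene means it was 13 of 26, compared with 42.0%.

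For Atp2a2 the 2 brightest probe sets had group means within 0.037 of each other, and the next 3 had lower knock-in means. The second, 1416551_at, was at 14.57 and 14.60 in wild-type and at 14.56 and 14.65 in knock-in hearts, a difference of 0.020. In contrast, 1427250_at was at 13.13 and 13.15 in wild-type and at 12.79 and 12.84 in knock-in hearts. Probe set 1427251_at was at 11.52 and 11.47 against 10.98 and 11.20, and 1437797_at at 10.18 and 10.08 against 9.84 and 9.78. In these 3 the gap between the groups was wider than the spread within either.

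Their differences were -0.33, -0.41 and -0.32, with unadjusted limma p of 0.0172, 0.0134 and 0.0209 and adjusted p of 0.755, 0.722 and 0.784. All 3 kept a negative difference in the 9 other settings tried, between -0.51 and -0.28. Most of these settings could not change the sign. The groups do not overlap, so leaving out an array cannot reverse it, and settings that refit the same values leave the difference as it is. Only the other scalings could have reversed it. The dimmest probe set, 1443551_at, also lay lower without overlap, with a difference of -0.14. Compared with the main Atp2a2 probe set, the difference of these 3 was lower by 0.36 to 0.44, so the probe sets of this gene differed unequally. The 2 brightest stood at the 99.98th percentile of all probe sets, with array maxima between 14.90 and 14.99. Whether their brightness limits the difference they can show was not tested.

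For Trdn the probe sets went both ways. Probe set 1426134_at was at 8.52 and 8.93 in wild-type and at 9.12 and 9.14 in knock-in hearts, a difference of 0.40 (unadjusted limma p of 0.0398, adjusted 0.835). Probe set 1451940_x_at, which the annotation derives from the same sequence record, was at 8.82 and 8.83 in wild-type and at 8.96 and 9.03 in knock-in hearts, a difference of 0.17. Both lay higher in knock-in hearts, with no overlap. Another record gave 3 probe sets, of which 1426143_at was lower in knock-in hearts, at 10.09 and 10.07 against 9.86 and 9.72 (-0.29, unadjusted limma p of 0.0373, adjusted 0.832). The second of them, 1426144_x_at, was lower by less, with a difference of -0.13, and 1426142_a_at had a difference of 0.051. Suffixes with an x mark probe sets whose probes may also match other transcripts, so the x probe sets of Trdn are uncertain.

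Cacna1c also had probe sets with differences of opposite sign. Its dimmer one, 1435730_at, was at 9.91 and 9.87 in wild-type and at 9.72 and 9.67 in knock-in hearts, a difference of -0.19 with no overlap (adjusted limma p of 0.884), compared with 0.10 for the main one.

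**Figure D3:**
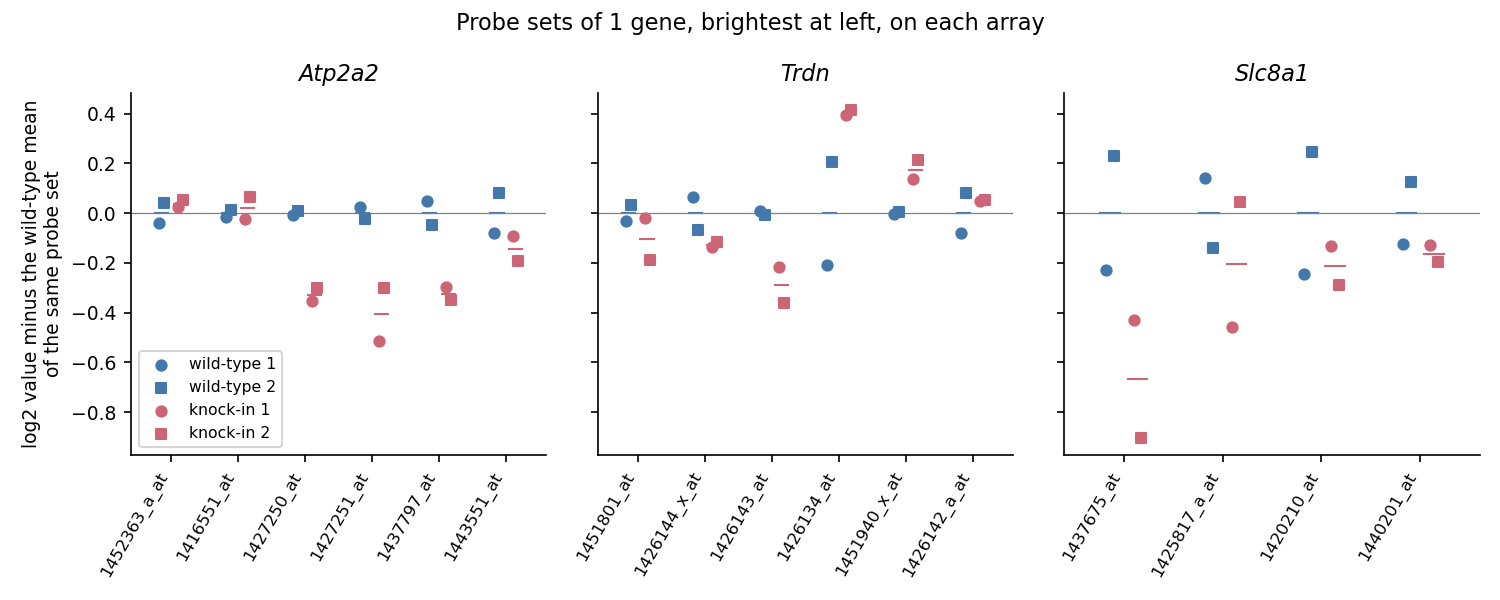
Log2 value of each probe set minus its own wild-type mean (y axis) on each array for Atp2a2, Trdn and Slc8a1, with the brightest probe set at the left. Short lines are group means (n = 2). The 2 brightest Atp2a2 probe sets stay near 0 and the other 4 lie lower in both knock-in arrays than in both wild-type arrays, Trdn probe sets lie on both sides of 0, and all 4 Slc8a1 means are below 0.

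The arrays also carry control probe sets that bear on RNA and labelling. The 3′ minus 5′ signal of Gapdh was 0.64 and 0.60 in wild-type hearts against 0.77 and 0.54, and that of beta-actin 0.45 and 0.39 against 0.37 and 0.28. The 3′ control for 18S ribosomal RNA was at 7.85 and 8.59 in wild-type and at 10.05 and 9.40 in knock-in hearts. The mean over 5 liver markers, whose transcripts are not those of heart muscle, was 6.56 and 6.05 against 7.78 and 8.47, with all 5 higher in both knock-in arrays (19.6% of all genes were). All 5 had an unadjusted limma p under 0.05, from 7.82e-05 to 0.00199, where 4.40% of all genes were higher at this level, and their smallest adjusted p was 0.142. The part of ribosomal or liver signal in the probe set differences of Slc8a1, Atp2a2 and Trdn was not tested. The median of each array was between 5.97 and 6.04.

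The rest of the calcium pathway was described through 5 lists by role, of which 77 of 88 genes were measured. None of the 77 passed over all genes. At an unadjusted limma p under 0.05, 1 was higher (4.40% of all genes were) and 1 lower (2.99% of all genes). Their median difference was 0.022, and the groups lay apart in 17 with the knock-in higher (19.6% of all genes) and 16 with it lower (17.0%). The share apart in either direction was 42.9% of the 77, compared with 36.5% of all genes. Of the 77, 52 lay above the median of all gene means, and among all genes above it the share was 43.9%. The gene with the smallest p was Camk2d, the main calcium/calmodulin-dependent kinase of heart muscle, which phosphorylates the ryanodine receptor and phospholamban. It was at 8.07 and 8.62 in wild-type and at 9.20 and 9.07 in knock-in hearts, a difference of 0.79 (unadjusted limma p of 0.00488, adjusted 0.366). Both knock-in arrays were higher, but the 6 other Camk2d probe sets had differences from -0.41 to 0.21, and with all averaged the difference was 0.061. The lower gene was Casq1, the calsequestrin of skeletal muscle, which had a single probe set. It was at 8.31 and 7.999 in wild-type and at 7.46 and 7.80 in knock-in hearts, a difference of -0.53 (unadjusted limma p of 0.0164, adjusted 0.520). Leaving out wild-type 1 gave -0.37 and leaving out knock-in 1 gave -0.35, with unadjusted p of 0.101 and 0.100 by limma.

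Among the 10 measured genes of calcium entry the median difference was -0.031. Cacna2d1, the extracellular auxiliary subunit of the L-type channel, differed by 0.083, Rrad, a small GTPase that restrains the channel, by -0.18, and the T-type channel gene Cacna1g by -0.12. Differences of the paralogues Cacna1d, Cacna1s, Cacnb1 and Cacnb4 lay between -0.092 and 0.042. Among 19 genes of reticulum release and storage the median was 0.011. Tmem38a, a counter-ion channel of the reticulum, differed by 0.24, Jph1 by 0.20 and Jph4 by -0.21, whereas the receptor paralogues Ryr1 and Ryr3 differed by -0.17 and 0.074.

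Among 9 genes of calcium removal 8 had negative differences, with a median of -0.072, and none had an unadjusted p under 0.05. Negative differences were found in 9054 of all 18193 genes, and in 3895 of the 9096 above the median of all gene means. They were thus more frequent among the dimmer genes, where most of these 9 lie. The pump paralogues Atp2a1 and Atp2a3 differed by -0.28 and -0.072, the exchanger paralogues Slc8a2 and Slc8a3 by 0.072 and -0.18, and the plasma membrane pump gene Atp2b1 by -0.038. Of these 9, 7 lay below the median of all gene means. Among 27 genes of kinase and phosphatase control, 22 of them above that median, 19 had positive differences, with a median of 0.051. Of all genes above the median of gene means, 5201 of 9096 had positive differences. After Camk2d the 19 included Prkaca, the catalytic subunit of protein kinase A, at 0.18. The calcineurin regulator Rcan1 (-0.52) and the phosphodiesterase Pde4d (-0.10) were on the other side. Rcan1 was at 10.61 and 11.51 in wild-type and at 10.39 and 10.70 in knock-in hearts, so its groups overlapped. Among 12 mitochondrial and store-operated genes the median was 0.063, with Letm1 and Vdac2 of the mitochondrial membranes at 0.28 and 0.14, the mitochondrial uniporter Mcu at -0.069 and the store-operated channel gene Orai3 at -0.10.

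**Figure D4:**
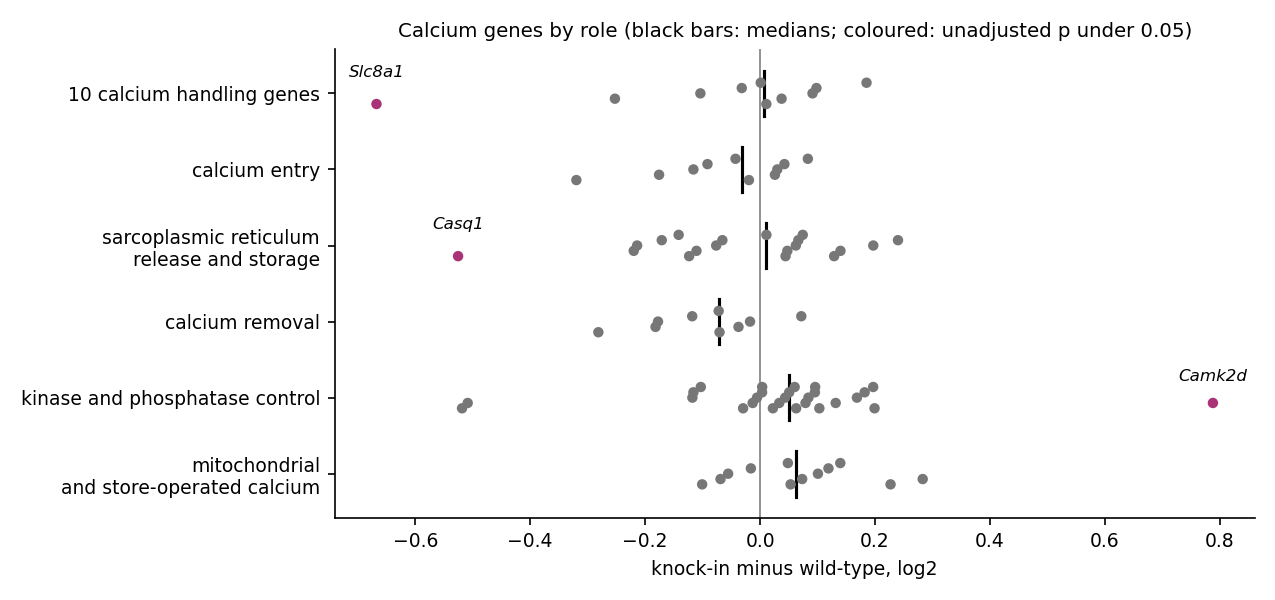
Knock-in minus wild-type log2 difference (x axis) of each measured gene, in rows for the 10 calcium handling genes and 5 lists by role. Black bars are medians and coloured points have an unadjusted limma p under 0.05, namely Slc8a1, Casq1 and Camk2d, none of which passed over all genes.

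No marker of the cells that carry these genes passed over all genes. The mean log2 value over 7 cardiomyocyte markers was 14.19 and 14.22 in wild-type hearts against 14.24 and 14.29, with all 7 differences above 0 and at most 0.16. Differences were above 0 in 3165 of the 5308 genes at least as bright as the dimmest of the 10. The mean of each list below is in the same units. Over 6 atrial markers, relevant to Sln, it was 9.64 and 9.55 against 9.73 and 9.59. Over 4 ventricular markers the mean was 10.66 and 10.71 against 10.92 and 10.85. All 4 were higher in both knock-in arrays, as 19.6% of all genes were, but Myl2 and Myl3 differed by only 0.044 and 0.036. For Myl3, wild-type 1 and knock-in 1 were both at 14.71. The transcription factor genes Hey2 (0.38, dim) and Irx4 (0.33) had unadjusted limma p of 0.0304 and 0.0142. The 7 skeletal muscle markers had means between 5.43 and 5.63 on all arrays, and all 7 lay below the median of all gene means. The 5 smooth muscle markers, relevant to Cacna1c and Atp2a2, were at 9.67 and 9.59 against 9.66 and 9.44, and their differences ranged from -0.43 to 0.51. Of these, Smtn was higher (0.51) and Acta2 lower (-0.30) at unadjusted limma p of 0.00318 and 0.0289. The list means of fibroblast, endothelial and macrophage markers differed by 0.082, -0.094 and 0.036, and those of erythrocyte and neuron markers by 0.086 and -0.0041. The mean of 3 adipocyte markers, all dim, differed by 0.36, through Adipoq alone (1.13, unadjusted limma p of 0.000620, adjusted 0.237), as Cidec and Lep differed by -0.079 and 0.031. The part of these markers in the differences above was not tested.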

How the data were processed

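Heart RNA from 2 GSK-3beta S9A knock-in and 2 wild-type samples was measured, 1 array each, and groups and replicate numbers came from the sample titles. Each deposited array holds 1 log2 value per probe set. The submitters' processing notes name RMA and Affymetrix Expression Console, without versions. Per the labels, the wild-type arrays were normalized here only with these knock-in arrays. RMA gives no detection call, so dim probe sets have values too, and the number of arrays limits the precision.

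Of 45101 probe sets, 64 were controls and 34945 had 1 symbol. The brightest probe set stood for a gene. Symbols were updated by Entrez identifier through a RefSeq table (GRCm38.p6) where it held them, which was so for 34741 probe sets. The groups were compared by limma (version 3.58.1, lmFit then eBayes, under R 4.3.3) on 18193 genes and separately on 45037 probe sets, without a filter. Tests were two-sided, and p-values were adjusted by Benjamini and Hochberg's method over each whole table, at 0.05. Intervals are 95% intervals from these fits. The fit over genes was tested on simulated data. Within-array differences were tested by exact permutation. The genes, lists and alternatives were chosen with earlier results of these data known. Named were all 10 genes, a fixed set of paralogues and, per list, the 2 higher and 2 lower genes of smallest p above the median. Camk2d and Casq1 were described further after their values were seen. The labels give the replicate numbers no shared meaning, so no block was used. Alternatives tried were the block, another prior, other scalings, other ways to take a gene's value, and each array left out.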

Additional observations from a re-analysis of the deposited data

Results flagged for a closer look

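Of the 19 control probe sets of mouse transcripts, which are outside the gene comparison, 4 were higher in both knock-in arrays than in both wild-type arrays by at least 0.5 on the log2 scale, a limit chosen after the values were seen. The 3 for 18S ribosomal RNA differed by 1.51 (3′), 2.07 (middle) and 1.35 (5′), and the one for the B1 repeat differed by 0.68, at 11.20 and 11.32 in wild-type and 11.77 and 12.12 in knock-in hearts. The 18S 3′ minus 5′ signal was 2.75 and 2.78 in wild-type and 2.88 and 2.98 in knock-in hearts.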

How the results depend on the processing

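With all 4 arrays kept, the counts passing were 0 in every other setting for the 10 genes, the 77 other calcium genes and the 30 probe sets. Of all genes, 0 to 22 passed in these settings. None did with the replicate number as a block or with the probe set listed first, so a count of 0 was fixed there. At an unadjusted limma p under 0.05 they gave 0 to 2 of the 10, 4 to 7 of the 30 and 2 to 4 of the 77. They gave 1143 to 1537 over all genes, and 1104 of the 9096 genes above the median. With the replicate number as a block (replicate block), the counts were 0 of the 10 and 4 of the 77, compared with 1143 of all 18193 genes. It was 4 of the 30 probe sets, which come from the separate fit over probe sets. For that fit the share of all probe sets was counted in the reported setting alone, at 5.84%. The counts of the 30 in other settings therefore have no share to be read against. Same-numbered arrays deviated with a correlation of -0.03 over all genes. Slc8a1, Jph2 and Casq2 kept their sign in every setting in which they could be fitted, but many of these settings could not change it. Their groups do not overlap, so leaving out an array cannot reverse the difference. The block, the other prior and the restriction to genes above the median leave the difference as it is. Casq2 has a single probe set, so averaging or taking the probe set listed first changed nothing for it. The signs of near-zero differences did not hold. Ryr2 became -0.017 with each array centred on its median and -0.026 after quantile normalization, and Pln -0.0073 and -0.0080. Sln became 0.0068 with each array centred on the median of all its probe sets, which was chosen after seeing the data and gave 1145 genes higher and 392 lower at an unadjusted p under 0.05, where the reported fit gave 800 and 544. With averaged probe sets Atp2a2 became -0.19, Cacna1c -0.046, Trdn 0.019 and Atp2a2 minus Pln -0.24. With the probe set listed first Trdn became 0.40 and Atp2a2 minus Pln -0.043. Leaving out 1 array at a time gave -0.027 to 0.029 for Ryr2, -0.0012 to 0.076 for Atp2a2, -0.0066 to 0.028 for Pln, -0.17 to 0.11 for Sln, -0.013 to 0.38 for Cacnb2 and -0.014 to 0.067 for Atp2a2 minus Pln. Each such fit assumes that the 1 array remaining in a group varies as the other group does. The cause of these sign changes was not tested.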
